A study of Mus musculus with 8 samples.

Results

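HOX genes encode homeodomain transcription factors that lie in 4 chromosomal clusters, and their transcripts were examined in day 3 mouse uterine stromal cells. The members are all gene symbols of the count tables made of Hox, a cluster letter from a to d and a number. This rule found 39 genes among 23420 symbols, with 11 in the HoxA cluster on chromosome 6, 10 in HoxB on chromosome 11, 9 in HoxC on chromosome 15 and 9 in HoxD on chromosome 2. One group consisted of 4 libraries from Erbb3f/f females and the other of 4 libraries from Erbb3d/d females, numbered as replicates 1 to 4 in each. By mouse convention f denotes a floxed copy of Erbb3 and d a copy recombined by Cre. The labels name no Cre line, promoter, strain or age, and they do not say from which event day 3 was counted, how stromal cells were separated, or whether each library came from 1 animal. The p-values below therefore measure the spread between these samples.

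In vertebrate embryos the HOX clusters set position along the body axis. Genes with low numbers lie at one end of a cluster and act in anterior regions, and genes with high numbers lie at the other end and act in posterior regions. Members with the same number in different clusters are paralogues that descend from one ancestral gene. Along the female reproductive tract the posterior HoxA genes are used in order, with Hoxa9 in the oviduct, Hoxa10 in the uterus, Hoxa11 in the uterus and cervix and Hoxa13 in the upper vagina. In the adult uterus Hoxa10 and Hoxa11 are required in the stroma for implantation, and Hoxa11 also for gland development. ERBB3 is a receptor of the epidermal growth factor receptor family that binds neuregulins.

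Reads assigned to genes ranged from 8578575 to 12854367 per library. Counts per 1000000 reads (CPM) use TMM-scaled library sizes (trimmed mean of M values), and 3 reads corresponded to 0.236 to 0.350 CPM. Erbb3 itself had 7.4, 10.6, 8.25 and 12.3 CPM in Erbb3f/f replicates 1 to 4 and 7.37, 14.3, 17.7 and 16.2 CPM in Erbb3d/d replicates 1 to 4 (log2 fold change 0.53, SE 0.28, edgeR adjusted p = 0.485). The libraries labelled Erbb3d/d thus showed no lower mean level of the targeted gene, and a count per gene cannot show whether an exon was deleted. All 8 stromal markers were detected in every library, with summed levels of 6982 to 8774 CPM in Erbb3f/f and 6818 to 8639 CPM in Erbb3d/d. Markers of other cell types were present too. The 8 epithelial markers summed to 949, 792, 625 and 1019 CPM in Erbb3f/f replicates 1 to 4 and to 1041, 1025, 1711 and 1753 CPM in Erbb3d/d replicates 1 to 4. The 8 smooth muscle markers summed to 1638, 1376, 800.5 and 1049 CPM and to 3813, 1703, 1585 and 2345 CPM in the same order. Of these, Erbb3d/d replicates 3 and 4 were highest for epithelial markers and Erbb3d/d replicate 1 for smooth muscle markers. In such bulk samples, fewer cells of a type and less RNA per cell cannot be told apart.

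The uterine stromal cells held a broad HOX repertoire headed by the posterior genes of the HoxA and HoxD clusters. A gene was called on where it had at least 1 CPM in every library. By this rule 25 of the 39 genes were on, 7 of 11 in HoxA, 8 of 10 in HoxB, 4 of 9 in HoxC and 6 of 9 in HoxD. The other 14 were low, and none was without a read in all 8 libraries. The 9 members not tested for a genotype difference because their counts were too low included all 4 genes of group 13 and both of group 12. Hoxa13 had 5 to 11 reads per library and Hoxd12 0 to 7 reads. Hoxb1, Hoxb13, Hoxc12, Hoxc13, Hoxd1 and Hoxd13 had at most 3 reads in any library.

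Levels of different genes were compared per length, as reads per kilobase of exon scaled to the same total in every library. On this length-scaled level the 2 highest members in Erbb3f/f were Hoxa11 at 1409.5 ± 58.2 and Hoxa10 at 1385 ± 59.8 (mean ± SD, n = 4), which differed by less than their spread. They ranked 51 and 55 among 21737 genes with a length. Of the HoxD genes, Hoxd10 stood at 733 ± 61.2, Hoxd9 at 523 ± 61.7 and Hoxd11 at 387 ± 16.5, ranking 140, 217 and 342. Both gaps between these 3 were wider than the SDs. Hoxd8 (132 ± 14.2), Hoxd4 (129 ± 22.9) and Hoxa9 (109.8 ± 14.3) came next and differed by less than their SDs combined, and the highest HoxB genes were Hoxb6 (87.2 ± 22.7) and Hoxb8 (84.4 ± 14.3). In HoxC the highest gene on this scale was Hoxc6 at 12.7 ± 4.71.

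**Figure D1:**
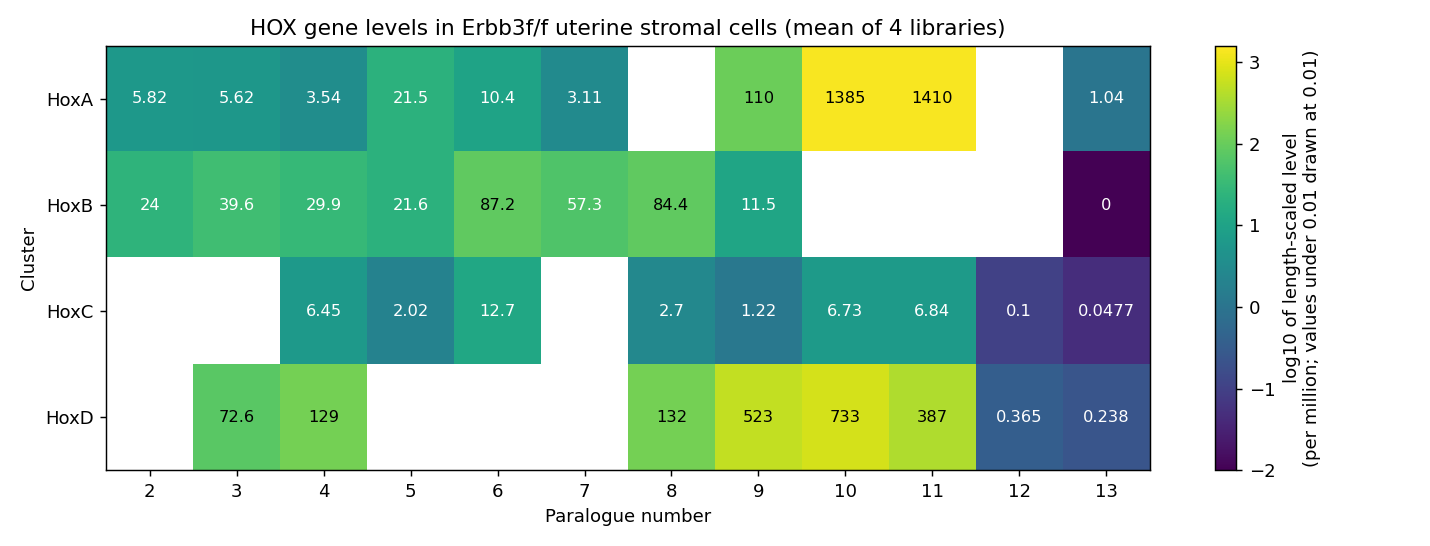
Mean length-scaled level of the HOX genes of groups 2 to 13 in the 4 Erbb3f/f libraries, arranged by cluster (vertical axis) and paralogue number (horizontal axis), with color on a log10 scale and blank cells where the mouse has no gene. The brightest cells are Hoxa10, Hoxa11 and Hoxd9 to Hoxd11, and groups 12 and 13 are dark in every cluster that has them.

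Summed over each cluster, HoxA held 55.5 ± 1.14% of the length-scaled HOX level in Erbb3f/f, HoxD 37.1 ± 1.78%, HoxB 6.71 ± 1.44% and HoxC 0.726 ± 0.146%. Groups 9 to 11 of all clusters together made up 85.8 ± 1.05%. Within HoxA the step along the chromosome was steep. The genes anterior to Hoxa9 summed to 51.1 ± 8.99 against 2904 ± 107 for Hoxa9 to Hoxa11, and Hoxa13, the next gene beyond Hoxa11, stood at 1.04 ± 0.18. In HoxD the same boundary lay between Hoxd11 and Hoxd12, which stood at 0.365 ± 0.626. HoxB differed in shape, since Hoxb6 to Hoxb8 exceeded Hoxb9, which stood at 11.5 ± 3.75.

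Some of these genes share exonic sequence with other transcripts in GENCODE vM21, and the libraries were non-directional. Hoxa11 (chr6:52242106-52245810 on GRCm38, minus strand) shares 35.0% of its exonic bases with its antisense transcript, listed in the tables as Hoxa11as. Hoxb3 shares 52.9% with a transcript on the other strand. Hoxd3 and Hoxd4 share 62.3% and 52.3% with transcripts on their own strand, including each other. Reads from such pairs cannot be told apart. Counting only exon length outside other genes gave a length-scaled level over all 8 libraries of 1797 for Hoxa11 and 1162 for Hoxa10, whereas the full lengths gave 1169.6 and 1163. The same step moved Hoxd4 from 117 to 246, Hoxd3 from 66 to 178 and Hoxb3 from 44.7 to 94.8. This step kept all reads of a gene and shortened only its length. Of the exonic bases, 0% in Hoxb3, 9.26% in Hoxd3 and 13.2% in Hoxd4 were shared with genes of the count tables. Reads in the other shared exons could still be counted, so these rises may overstate the levels. The strand setting of the counting is not given, so the same may hold for Hoxa11. By this length Hoxd4 and Hoxd3 stood above Hoxd8 (123) and Hoxa9 (97.3), so the order of these 4 depends on the exon length used.

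The start regions of 5 members are shown as examples, 4 from the abundant posterior HoxA and HoxD genes and Hoxb8 as an abundant HoxB gene. No promoter entry was matched for Hoxb9. Each runs from 250 bases before to 50 bases after a RefSeq start on GRCm38.p6, 5′ to 3′ on the gene's strand. Capitals mark matches on either strand to 5 motifs. The TATA box was searched as TATAAA. A GC box is GGGCGG here, and the CCAAT box is the letters of its name. The nuclear receptor half-site was searched as AGGTCA. For the progesterone receptor half-site the letters were TGTTCT. No 2 matches overlap in these 5. The windows are chr6:52240805-52241104 (minus strand) for Hoxa10, chr6:52245761-52246060 (minus) for Hoxa11, chr2:74691641-74691940 (plus) for Hoxd10, chr2:74679308-74679607 (plus) for Hoxd11 and chr11:96281655-96281954 (plus) for Hoxb8.
Hoxa10: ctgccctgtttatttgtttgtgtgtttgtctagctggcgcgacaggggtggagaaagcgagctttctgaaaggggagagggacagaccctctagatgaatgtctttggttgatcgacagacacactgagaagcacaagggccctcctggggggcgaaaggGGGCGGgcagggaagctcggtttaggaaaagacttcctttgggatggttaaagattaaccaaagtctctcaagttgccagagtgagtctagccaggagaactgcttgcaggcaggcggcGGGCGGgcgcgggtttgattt
Hoxa11: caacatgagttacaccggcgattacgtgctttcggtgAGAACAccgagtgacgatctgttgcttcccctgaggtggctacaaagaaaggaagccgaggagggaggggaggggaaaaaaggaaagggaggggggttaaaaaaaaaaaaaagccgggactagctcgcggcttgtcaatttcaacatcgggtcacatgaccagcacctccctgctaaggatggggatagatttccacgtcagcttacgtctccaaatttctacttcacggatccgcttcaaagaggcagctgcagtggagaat
Hoxd10: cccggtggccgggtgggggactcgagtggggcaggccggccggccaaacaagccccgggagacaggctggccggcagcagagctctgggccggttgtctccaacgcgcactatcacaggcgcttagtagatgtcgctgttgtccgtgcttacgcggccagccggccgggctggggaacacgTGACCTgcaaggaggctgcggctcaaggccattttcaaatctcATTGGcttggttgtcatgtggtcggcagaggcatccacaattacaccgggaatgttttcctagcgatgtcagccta
Hoxd11: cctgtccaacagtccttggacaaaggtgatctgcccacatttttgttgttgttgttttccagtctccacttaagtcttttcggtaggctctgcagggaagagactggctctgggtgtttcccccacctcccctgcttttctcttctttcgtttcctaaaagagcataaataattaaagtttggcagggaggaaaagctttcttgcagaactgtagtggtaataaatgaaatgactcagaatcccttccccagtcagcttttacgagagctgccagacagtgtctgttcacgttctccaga
Hoxb8: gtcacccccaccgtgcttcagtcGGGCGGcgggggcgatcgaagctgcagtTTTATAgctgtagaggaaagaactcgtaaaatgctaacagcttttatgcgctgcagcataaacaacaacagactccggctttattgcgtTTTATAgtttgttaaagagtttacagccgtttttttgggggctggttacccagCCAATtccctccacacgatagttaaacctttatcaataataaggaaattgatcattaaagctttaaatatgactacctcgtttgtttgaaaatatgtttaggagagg

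The 5 windows differ in letters. Hoxa10 holds 2 GC boxes, Hoxa11 a single progesterone receptor half-site, and Hoxd10 a CCAAT box and a nuclear receptor half-site. Hoxb8 holds 2 matches to the TATA box letters, a CCAAT box and a GC box. Both Hoxb8 TATA matches read TTTATA and so lie on the opposite strand, at positions 52 and 141 of the window. None of the 5 motifs lies in the Hoxd11 window shown. Hoxa10 and Hoxd11 each have a second RefSeq window, and for both the start farthest upstream is shown. The second Hoxa10 window (chr6:52234890-52235189) holds a TATA match, also on the opposite strand, a CCAAT box and no GC box. It has 21 CpG dinucleotides against 12 in the one shown. The second Hoxd11 window (chr2:74682073-74682372) holds a GC box, with 25 CpG dinucleotides against 4. Which start these cells use was not tested. Promoter entries were matched for 22 of the 39 members, in 24 windows. A CCAAT box occurred in 62.5% of these and in 37.4% of all 32851 promoters of the same length, a nuclear receptor half-site in 29.2% and 16.3%, a GC box in 41.7% and 35.7%, a TATA box in 16.7% and 13.6%, and a progesterone receptor half-site in 8.33% and 19.0%. The median number of CpG dinucleotides was 14.5 in the HOX windows and 7 over all promoters. A match is a stretch of letters and does not show that a factor binds there.

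The genotype comparison asked whether HOX transcripts differed between the libraries labelled Erbb3d/d and Erbb3f/f. In the means, all tested HoxB and HoxC genes were higher in Erbb3d/d, and Hoxa9 to Hoxa11 and all tested HoxD genes were lower. No single member passed the test. Of the 30 members tested, 0 had an edgeR adjusted p under 0.05, as for all 14598 genes tested (0% called). At an unadjusted edgeR p under 0.05, 5 members (16.7%) were higher, beside 6.64% of all genes, and 3 members (10%) were lower, beside 4.97% of all genes. The 5 were Hoxb3, Hoxb8, Hoxb9, Hoxc6 and Hoxc10, and the 3 were Hoxa10, Hoxa11 and Hoxd11. In 1 member, Hoxb9, the genotypes did not overlap and Erbb3d/d was higher, as in 2.56% of all genes, and in 0 members was Erbb3d/d lower without overlap, beside 2.48% of all genes. The log2 fold change was above 0 for 20 members and below 0 for 10, with a median of 0.34, against 7000 and 7598 of all genes and a median of -0.01.

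**Figure D2:**
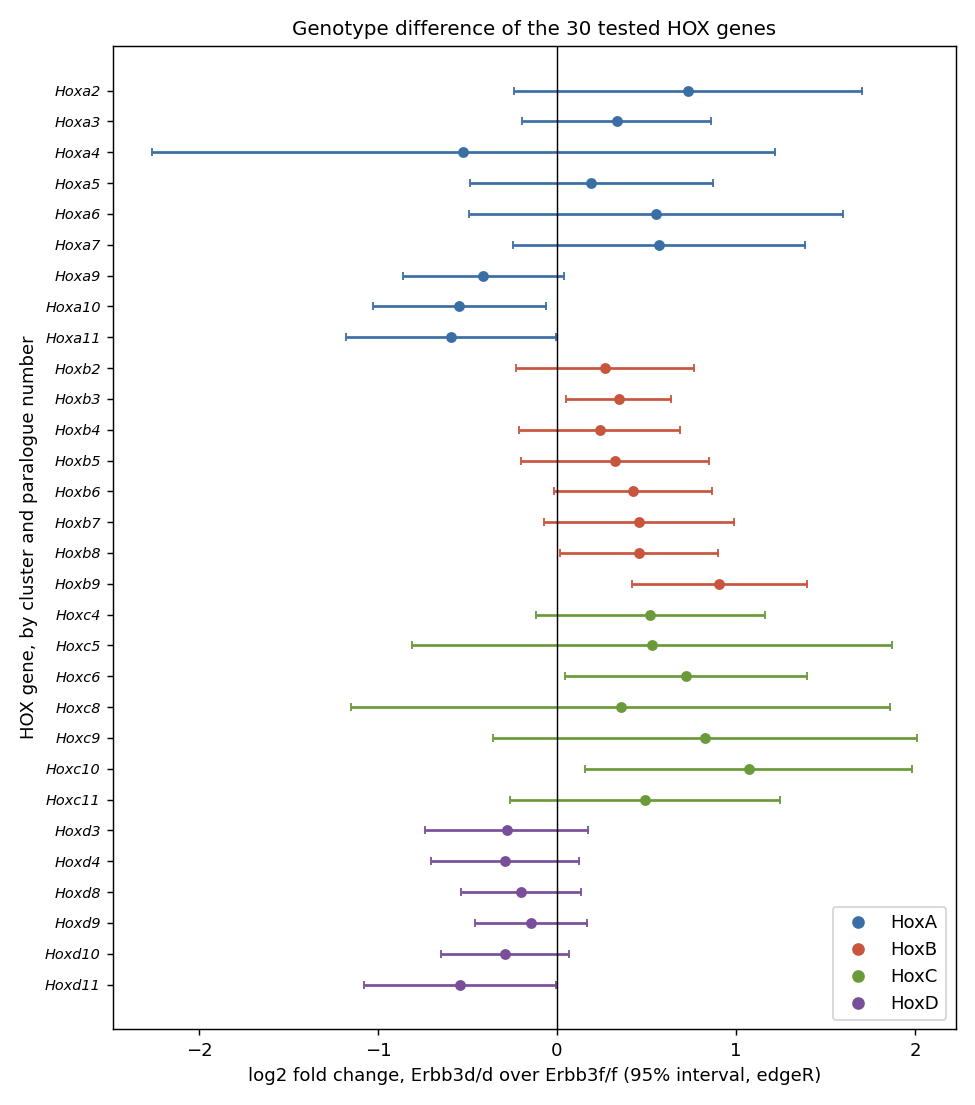
Log2 fold change of the 30 tested HOX genes, Erbb3d/d over Erbb3f/f, with 95% intervals from edgeR (horizontal axis), by cluster and paralogue number from top to bottom. Points of HoxB and HoxC lie right of 0, those of HoxD and of Hoxa9 to Hoxa11 left of it, and most intervals span 0.

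The uterine regulator Hoxa10 had 1045, 974, 1129.8 and 1059.8 CPM in Erbb3f/f replicates 1 to 4 and 797, 1052, 555 and 482 CPM in Erbb3d/d replicates 1 to 4. The 4 Erbb3f/f libraries lay close together, Erbb3d/d replicates 1, 3 and 4 lay below all of them, and Erbb3d/d replicate 2 lay among them. Its Erbb3f/f libraries averaged 1052 ± 63.8 CPM and those of Erbb3d/d 721 ± 258 CPM (± SD, n = 4 each; log2 fold change -0.54, SE 0.22, edgeR adjusted p = 0.383). Its neighbour Hoxa11, needed for implantation and for glands, had 792, 679, 763 and 763 CPM in Erbb3f/f replicates 1 to 4 and 534, 789, 364 and 303 CPM in Erbb3d/d replicates 1 to 4. The Erbb3d/d libraries split as for Hoxa10 (log2 fold change -0.59, SE 0.26, edgeR adjusted p = 0.428). Hoxa9, known from the oviduct, had 134, 122, 171 and 143 CPM in Erbb3f/f replicates 1 to 4 and 119.6, 148, 76.5 and 85.4 CPM in Erbb3d/d replicates 1 to 4 (log2 fold change -0.41, SE 0.20, edgeR adjusted p = 0.466). The 3 genes lie side by side between 52223100 and 52245810 on chromosome 6. Their sum was 1972, 1775, 2063 and 1966 CPM in Erbb3f/f and 1451, 1989, 996 and 871 CPM in Erbb3d/d replicates 1 to 4.

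In HoxD the posterior gene Hoxd11, which with its paralogue Hoxa11 acts in limb and kidney development, had 377, 363, 406 and 369 CPM in Erbb3f/f replicates 1 to 4 and 228, 424, 207 and 182 CPM in Erbb3d/d replicates 1 to 4. Here Erbb3d/d replicate 2 lay above the Erbb3f/f range and the other 3 below it (log2 fold change -0.54, SE 0.24, edgeR adjusted p = 0.427). Hoxd10, the paralogue of Hoxa10, had 307, 280.3, 351 and 299 CPM in Erbb3f/f replicates 1 to 4 and 252, 344, 224 and 194 CPM in Erbb3d/d replicates 1 to 4 (log2 fold change -0.29, SE 0.16, edgeR adjusted p = 0.516). Hoxd9 had 283, 227, 295 and 235 CPM in Erbb3f/f replicates 1 to 4 and 247, 293, 202 and 200.1 CPM in Erbb3d/d replicates 1 to 4 (log2 fold change -0.14, SE 0.14, edgeR adjusted p = 0.727), and its 95% interval of -0.46 to 0.17 allows a small change in either direction. Of these 3 neighbours Hoxd11 was furthest from 0. The ratio of Hoxd11 to Hoxd9 CPM was 1.33, 1.6, 1.37 and 1.57 by replicate in the Erbb3f/f libraries and 0.923, 1.45, 1.03 and 0.907 by replicate in those of Erbb3d/d, lower in Erbb3d/d replicates 1, 3 and 4 than in any Erbb3f/f library.

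The anterior HoxD genes had log2 fold changes closer to 0 than Hoxd11. Hoxd8 had 90.003, 81.1, 92.5 and 72.1 CPM in Erbb3f/f replicates 1 to 4 and 79.6, 92.7, 62.3 and 57.8 CPM in Erbb3d/d replicates 1 to 4 (log2 fold change -0.20). Hoxd4 had 84.4, 81.7, 113 and 76.2 CPM in Erbb3f/f replicates 1 to 4 and 67.3, 102, 58.9 and 62.6 CPM in Erbb3d/d replicates 1 to 4 (log2 fold change -0.29). Hoxd3 had 62.3, 61.3, 95.5 and 63.8 CPM in Erbb3f/f replicates 1 to 4 and 55.4, 77.9, 59 and 41.1 CPM in Erbb3d/d replicates 1 to 4 (log2 fold change -0.28). The genotypes overlapped in all 3, and Erbb3f/f replicate 3 was the highest library for Hoxd3 and Hoxd4.

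The HoxB genes ran the other way. Hoxb9, the posterior member of its cluster in these cells, had 6.14, 9.84, 5.58 and 5.88 CPM in Erbb3f/f replicates 1 to 4 and 11.4, 12.5, 14.5 and 13 CPM in Erbb3d/d replicates 1 to 4. Every Erbb3d/d library exceeded every Erbb3f/f library, replicate 2 included. The means were 6.86 ± 2.0 and 12.8 ± 1.29 CPM, a difference that did not pass (log2 fold change 0.91, SE 0.22, edgeR adjusted p = 0.236). A two-sided exact permutation test on log2(CPM + 0.5) gave p = 0.0286, the smallest that 4 against 4 libraries allow. Groups without overlap always give this value, so the test adds nothing to the separation. DESeq2 called this 1 member (adjusted p = 0.0129), where it called 1.78% of 15210 genes. Over all alternatives run the adjusted p of Hoxb9 ranged from 0.0129 to 0.999.

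Hoxb8 had 53.8, 57.2, 39.6 and 55.6 CPM in Erbb3f/f replicates 1 to 4 and 62.9, 50.04, 71.4 and 98.2 CPM in Erbb3d/d replicates 1 to 4 (log2 fold change 0.46, SE 0.20, edgeR adjusted p = 0.416). Hoxb3 had 40.7, 41.3, 32.4 and 41.8 CPM in Erbb3f/f replicates 1 to 4 and 51.3, 39.4, 53.4 and 53.9 CPM in Erbb3d/d replicates 1 to 4 (log2 fold change 0.34, SE 0.13, edgeR adjusted p = 0.365). In both, Erbb3d/d replicates 1, 3 and 4 lay above the Erbb3f/f range and replicate 2 within it. Hoxb6 had 42, 48.8, 26.1 and 41.6 CPM in Erbb3f/f replicates 1 to 4 and 41, 48.3, 57.9 and 65.1 CPM in Erbb3d/d replicates 1 to 4 (log2 fold change 0.43). Hoxb7 had 16.3, 24.4, 19.2 and 22.2 CPM in Erbb3f/f replicates 1 to 4 and 19.5, 20.1, 33.7 and 38.9 CPM in Erbb3d/d replicates 1 to 4 (log2 fold change 0.46). Both were above the Erbb3f/f range in Erbb3d/d replicates 3 and 4 and not in replicates 1 and 2. Hoxb2 had 24.6, 14.2, 15.9 and 23.1 CPM in Erbb3f/f replicates 1 to 4 and 19.3, 19.1, 23.2 and 32 CPM in Erbb3d/d replicates 1 to 4 (log2 fold change 0.27). Hoxb4 had 20.7, 23.6, 14.4 and 12.4 CPM in Erbb3f/f replicates 1 to 4 and 19.3, 21.8, 19.3 and 23.4 CPM in Erbb3d/d replicates 1 to 4 (log2 fold change 0.24). Hoxb5 had 15, 17.9, 8.48 and 14.4 CPM in Erbb3f/f replicates 1 to 4 and 13.8, 16, 17.3 and 22.6 CPM in Erbb3d/d replicates 1 to 4 (log2 fold change 0.33). These 3 overlapped widely between the genotypes, with replicate 4 the highest Erbb3d/d library in each.

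HoxC transcripts were scarce, and their differences were wide in error. Hoxc10 had 3.51, 2.09, 3.77 and 2.6 CPM in Erbb3f/f replicates 1 to 4 and 8.45, 2.22, 5.52 and 9.04 CPM in Erbb3d/d replicates 1 to 4 (log2 fold change 1.07, SE 0.41, edgeR adjusted p = 0.367). Hoxc6 had 7.5, 5.76, 10.8 and 4.52 CPM in Erbb3f/f replicates 1 to 4 and 14.3, 7.93, 9.61 and 15.4 CPM in Erbb3d/d replicates 1 to 4 (log2 fold change 0.72, SE 0.31, edgeR adjusted p = 0.409). Erbb3d/d replicates 1 and 4 were the highest libraries for both, and replicate 2 lay inside the Erbb3f/f range. Hoxc4 had 5.16, 3.87, 3.85 and 2.49 CPM in Erbb3f/f replicates 1 to 4 and 6.88, 4.32, 4.96 and 5.97 CPM in Erbb3d/d replicates 1 to 4 (log2 fold change 0.52). Hoxc11 had 2.53, 4.92, 2.12 and 3.17 CPM in Erbb3f/f replicates 1 to 4 and 3.73, 5.6, 3.31 and 5.26 CPM in Erbb3d/d replicates 1 to 4 (log2 fold change 0.49). The genotypes overlapped in both. Hoxc5, Hoxc8 and Hoxc9 were below 1 CPM in at least 1 library, and their 95% intervals ran from -0.81 to 1.87, from -1.15 to 1.86 and from -0.36 to 2.01 on the log2 scale.

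Of the 6 tested anterior HoxA genes, 5 had the opposite sign to Hoxa9 to Hoxa11, and Hoxa4 did not. Hoxa5, which acts in lung and axial skeleton development, had 8.67, 8.48, 11.6 and 8.82 CPM in Erbb3f/f replicates 1 to 4 and 17.8, 7.0, 6.7 and 11.6 CPM in Erbb3d/d replicates 1 to 4 (log2 fold change 0.19). Hoxa3, known from the pharyngeal organs, had 6.72, 7.64, 8.09 and 8.93 CPM in Erbb3f/f replicates 1 to 4 and 13.3, 7.0, 7.88 and 11.4 CPM in Erbb3d/d replicates 1 to 4 (log2 fold change 0.33). Erbb3d/d replicate 1 was the highest library for both. Hoxa2 had 3.8, 3.04, 1.02 and 1.7 CPM in Erbb3f/f replicates 1 to 4 and 4.91, 2.1, 4.33 and 4.39 CPM in Erbb3d/d replicates 1 to 4 (log2 fold change 0.73). Hoxa7 had 2.44, 1.99, 2.51 and 1.36 CPM in Erbb3f/f replicates 1 to 4 and 4.82, 2.8, 2.36 and 2.46 CPM in Erbb3d/d replicates 1 to 4 (log2 fold change 0.57). Of the low genes, Hoxa6 had a log2 fold change of 0.55 (SE 0.47) and Hoxa4 of -0.52 (SE 0.79), with 0 to 28 reads per library for Hoxa4. No adjusted p in this group was under 0.544 in edgeR.

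**Figure D3:**
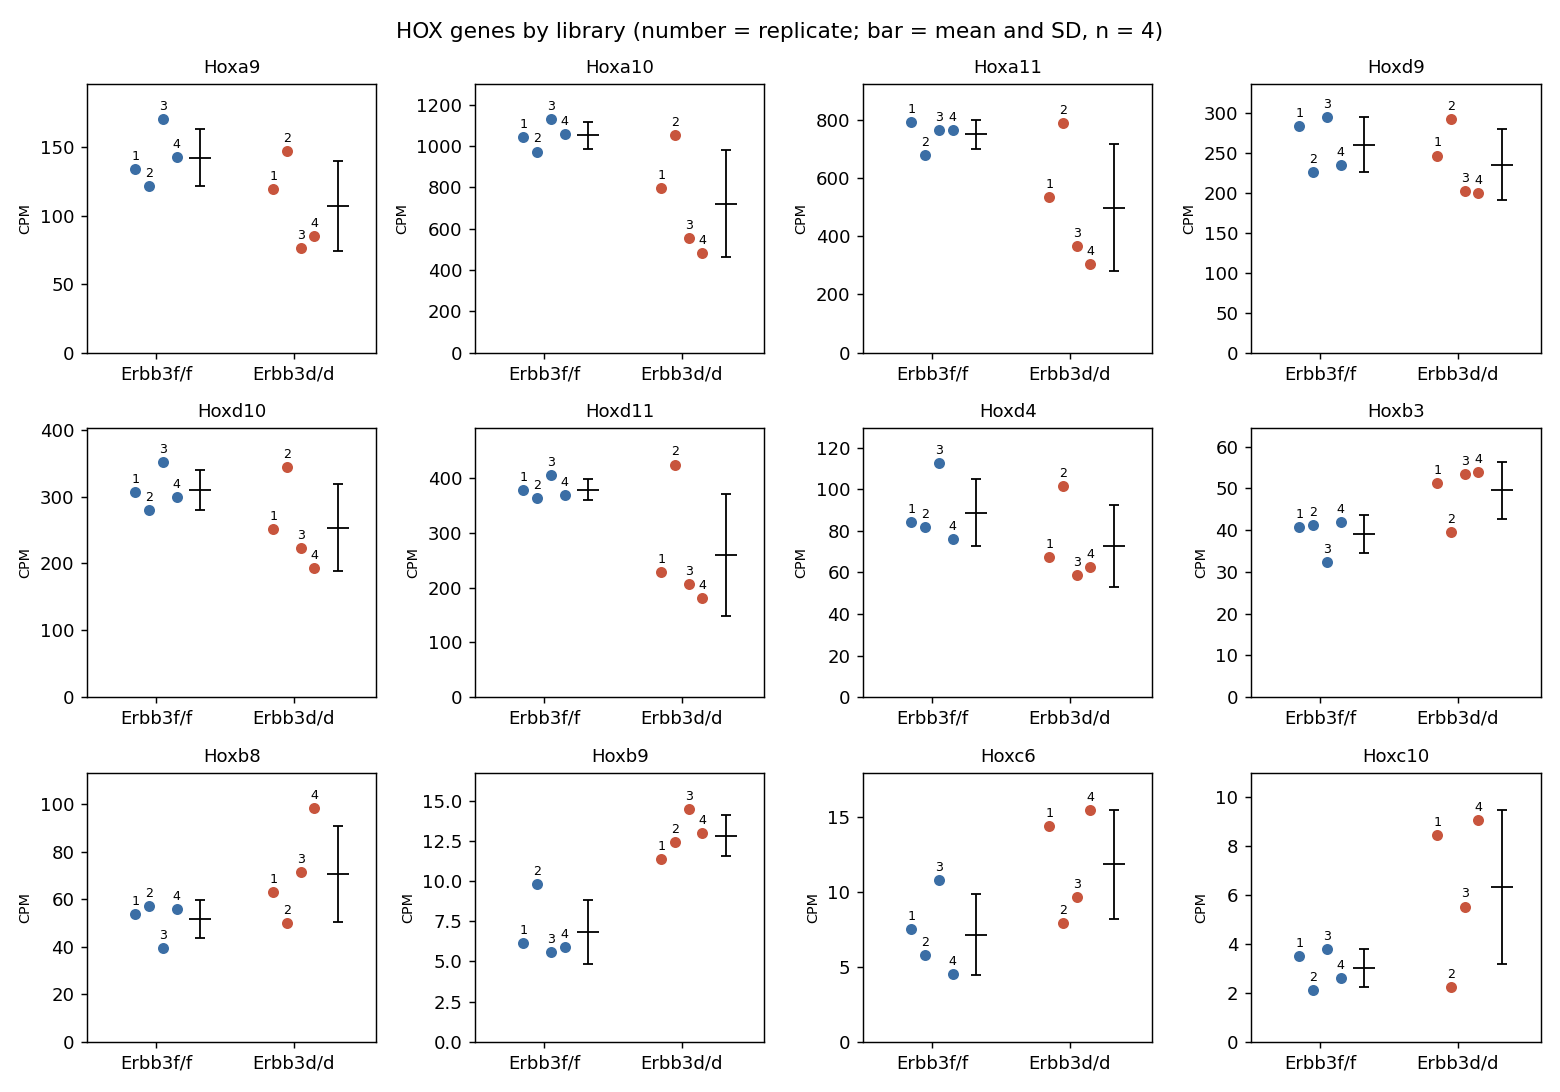
CPM (vertical axes, linear from 0) of 12 HOX genes in each library, with the replicate number beside each point and the mean and SD of 4 libraries as a bar. For Hoxa10, Hoxa11 and Hoxd11 the points of Erbb3d/d replicates 1, 3 and 4 sit below the Erbb3f/f points and replicate 2 does not, and Hoxb9 alone of the 12 shows no overlap.

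The 4 Erbb3d/d libraries thus did not carry the pattern equally. Of the 30 tested members, Erbb3d/d replicate 1 lay above the Erbb3f/f range in 12 and below it in 7, replicate 3 in 9 and 10, and replicate 4 in 15 and 9. Replicate 2 lay above in 5, below in 3 and inside in 22. Over all tested genes the shares above and below were 21.4% and 23.5% for replicate 1, 16.9% and 17.7% for replicate 2, 24.1% and 25.1% for replicate 3 and 26.9% and 29.5% for replicate 4. Without Erbb3d/d replicate 2, edgeR called 3 members lower and 0 higher. Of 14774 genes it called 1.75%, 116 lower and 143 higher. The 3 members were Hoxd11 (log2 fold change -0.88, SE 0.10, edgeR adjusted p = 0.00936), Hoxa11 (log2 fold change -0.90, SE 0.18, edgeR adjusted p = 0.0374) and Hoxa10 (log2 fold change -0.78, SE 0.16, edgeR adjusted p = 0.0452). Over all alternatives run the adjusted p ranged from 0.00936 to 0.999 for Hoxd11, from 0.0374 to 0.999 for Hoxa11 and from 0.0452 to 0.999 for Hoxa10. These 3 calls rest on leaving out that library.

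Summed over its 11 genes, HoxA had 1999.5, 1799.5, 2093 and 1989 CPM in Erbb3f/f replicates 1 to 4 and 1498, 2009.5, 1023 and 909 CPM in Erbb3d/d replicates 1 to 4. HoxD had 1204, 1095, 1353 and 1115 CPM and 929, 1334, 812 and 737 CPM in that order. For both, only Erbb3d/d replicate 2 reached the Erbb3f/f libraries. HoxB had 219, 237, 162 and 217 CPM and 238, 227, 291 and 347 CPM, and HoxC 22.5, 20.7, 27.1 and 14.1 CPM and 41.5, 22.3, 30.9 and 40.6 CPM. All HOX genes together averaged 3392 ± 202 CPM over the Erbb3f/f libraries and 2623 ± 709.8 CPM over those of Erbb3d/d, and these sums were not tested. The ratio of Hoxa9 to Hoxa11 over Hoxb2 to Hoxb9 in summed CPM was 9.0, 7.48, 12.8 and 9.06 by replicate in the Erbb3f/f libraries and 6.09, 8.75, 3.43 and 2.51 by replicate in those of Erbb3d/d, lowest in Erbb3d/d replicates 3 and 4. On the length-scaled level the HoxB share of all HOX was 6.71 ± 1.44% and 12.2 ± 5.13% in the same order, while that of HoxD was 37.1 ± 1.78% and 38.7 ± 1.13%.

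Marker levels differed between the groups as well. The epithelial sums were highest in Erbb3d/d replicates 3 and 4. The smooth muscle sum did not follow the HOX pattern by library, as Erbb3d/d replicate 3 (1585 CPM) lay below replicate 2 (1703 CPM). All 8 epithelial and all 8 smooth muscle markers had a log2 fold change above 0, with medians of 0.69 and 1.09. Of them 7 (87.5%) and 8 (100%) had an unadjusted edgeR p under 0.05, beside 6.64% of all genes higher at that p. The 7 were Epcam, Krt8, Krt18, Krt19, Cdh1, Cldn4 and Cldn7, from 0.55 for Krt18 to 0.98 for Epcam, without Muc1. The 8 were Acta2, Myh11, Cnn1, Actg2, Des, Tagln, Synm and Lmod1, from 0.40 for Des to 1.35 for Lmod1. Of the epithelial markers Epcam averaged 77.6 ± 20.3 and 153 ± 53.9 CPM in that order of groups, Erbb3f/f first. Of the stromal markers Pdgfra, a receptor of fibroblasts, had 894, 952, 999 and 817 CPM in Erbb3f/f replicates 1 to 4 and 683, 721, 519.9 and 564 CPM in Erbb3d/d replicates 1 to 4 and so did not overlap, and Vim did not overlap either (-0.56 and -0.47 on the log2 scale). The other stromal markers overlapped, Nr2f2 among them. Of the 8, 6 had a log2 fold change below 0 and 2 above it, Dcn (0.38) and Lum (0.26), and the median was -0.24. Without Erbb3d/d replicate 2, edgeR called Pdgfra (log2 fold change -0.63, SE 0.13, edgeR adjusted p = 0.0395). Adding the mean log2 CPM of the epithelial markers to the model gave log2 fold changes of -0.086 for Hoxa10, -0.11 for Hoxa11, -0.10 for Hoxd11, -0.072 for Hoxb8 and 0.78 for Hoxb9. Adding that of the smooth muscle markers gave -0.47, -0.51, -0.28, 0.24 and 0.87 in the same order. With the epithelial term 5 of the 8 tested HoxB genes and 5 of the 6 tested HoxD genes changed sign, and with the smooth muscle term 6 members did. The epithelial mean ran from 6.10 to 6.84 in Erbb3f/f and from 6.82 to 7.63 in Erbb3d/d. That of smooth muscle ran from 6.13 to 7.19 and from 7.17 to 8.43 in the same order. Both nearly separate the genotypes, so these fits can hardly tell a marker term from genotype. The part of these marker levels in the HOX differences was not tested. Without Erbb3d/d replicates 3 and 4, left out together after their values were seen, Hoxa10 stood at -0.18, Hoxa11 at -0.18, Hoxd11 at -0.21 and Hoxb9 at 0.80. Endothelial markers had 0 of 6, immune markers 1 of 6 and mesothelial and glial markers 0 of 3 tested members at an unadjusted p under 0.05, the 1 being Ncr1, lower in Erbb3d/d. Ncr1 was 16.7% of the immune markers, beside 4.97% of all genes lower at that edgeR p. The most abundant of the lists without such a gene were Cdh5 (-0.38) and Pecam1 (0.11) for endothelium and Upk3b (-0.36) and Msln (-0.60) for mesothelium, as log2 fold changes. Cdh5 was the 1 endothelial marker below 0, the other 5 were above it, and the median of the 6 was 0.23. Sox10, which defines glia, was at 0 in all 8 libraries.

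**Figure D4:**
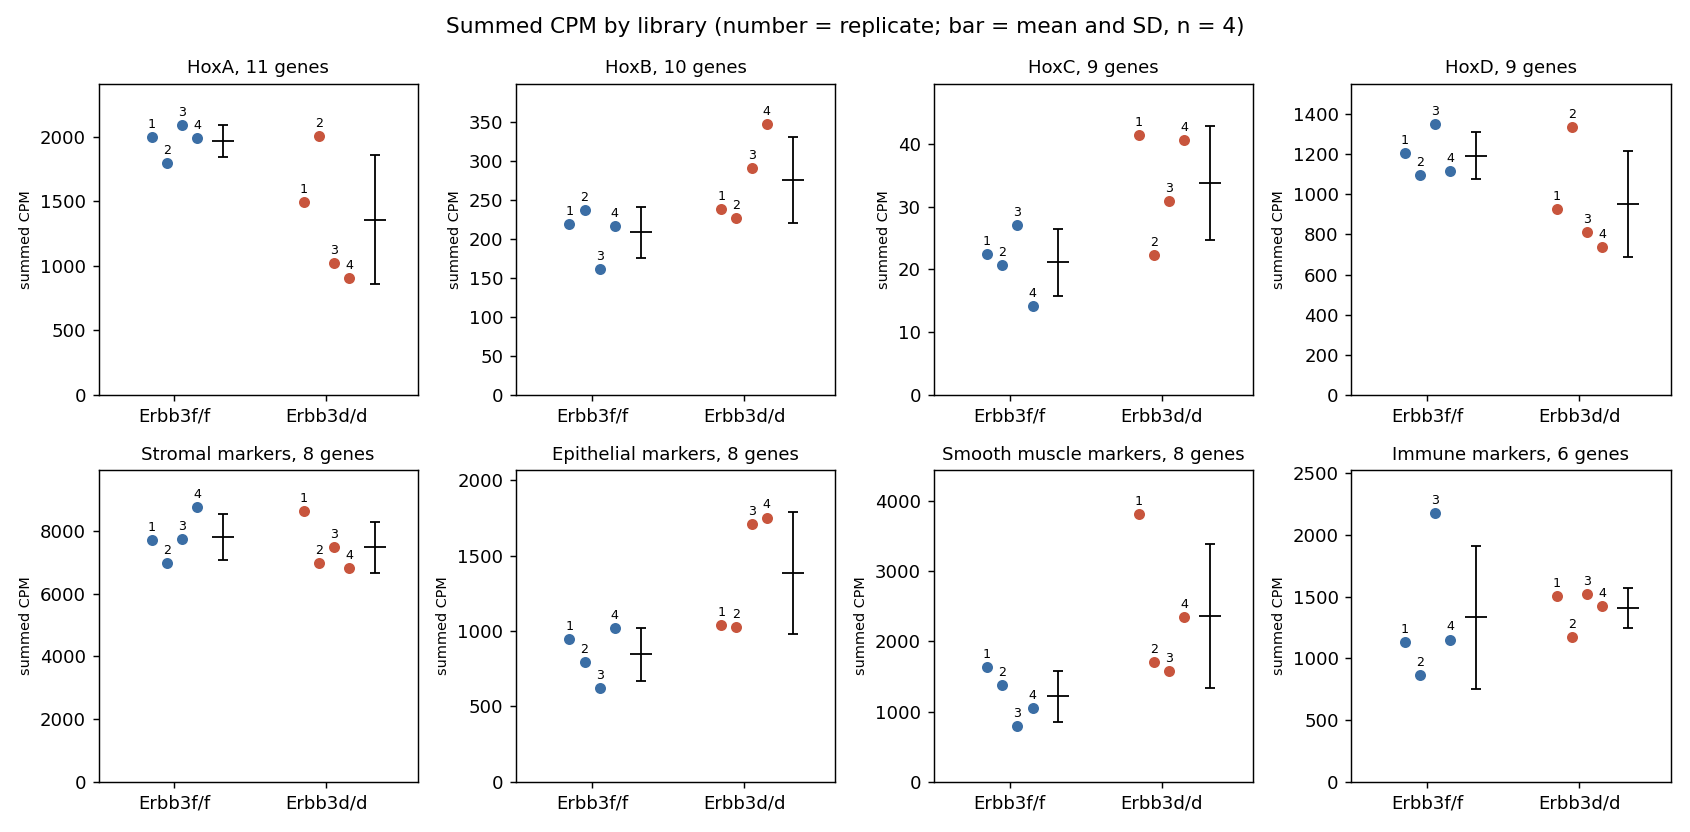
Summed CPM per library (vertical axes, linear from 0) of the 4 HOX clusters in the upper panels and of 4 marker lists in the lower panels, with replicate numbers beside the points and the mean and SD of 4 libraries as a bar. Erbb3d/d replicates 3 and 4 are lowest for HoxA and HoxD and highest for HoxB and epithelial markers.

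Noncoding transcripts of the clusters were measured beside the coding genes. Hoxa11as had 497, 407, 479 and 419 CPM in Erbb3f/f replicates 1 to 4 and 279, 456, 187 and 153 CPM in Erbb3d/d replicates 1 to 4 (log2 fold change -0.75, SE 0.30, edgeR adjusted p = 0.397). Without Erbb3d/d replicate 2 it was called (log2 fold change -1.12, SE 0.19, edgeR adjusted p = 0.0289), and over all alternatives its adjusted p ranged from 0.0289 to 0.999. Its ratio to Hoxa11 was 0.60 ± 0.037 in Erbb3f/f libraries and 0.529 ± 0.0333 in Erbb3d/d, and as the pair overlaps in unstranded libraries the levels are not independent. Hotair, a long noncoding RNA between Hoxc11 and Hoxc12, had 2.92, 4.08, 1.89 and 1.02 CPM in Erbb3f/f replicates 1 to 4 and 1.38, 0.467, 1.26 and 0.439 CPM in Erbb3d/d replicates 1 to 4 (log2 fold change -1.46, SE 0.55, edgeR adjusted p = 0.355), opposite in sign to the HoxC genes. Of the 8 listed noncoding symbols 3 were tested, and 2 of those, Hoxa11as and Hotair, had an unadjusted edgeR p under 0.05, both lower, beside 4.97% of all genes. The third was Mir196b, at 1.11 ± 0.652 and 1.2 ± 0.249 CPM, where a count on polyadenylated RNA measures the host transcript rather than the mature microRNA.

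HOX proteins bind DNA with cofactors of the PBX, MEIS and PREP (Pknox) families. All 10 genes of the cofactor list, called cofactors below, were tested, and 0 were called by edgeR. The list includes Pbxip1, which belongs to none of these families. At an unadjusted edgeR p under 0.05, 3 (30%) were higher, beside 6.64% of all genes, and 2 (20%) were lower, beside 4.97% of all genes. Pknox2 had 136, 133, 124 and 99.95 CPM in Erbb3f/f replicates 1 to 4 and 70.9, 92.8, 57.4 and 51.6 CPM in Erbb3d/d replicates 1 to 4, lower in every Erbb3d/d library than in any Erbb3f/f library (log2 fold change -0.86, SE 0.18, edgeR adjusted p = 0.183). Pbxip1, which encodes a PBX-interacting protein, had 231, 296, 264 and 260.3 CPM in Erbb3f/f replicates 1 to 4 and 431, 318, 361 and 389 CPM in Erbb3d/d replicates 1 to 4, without overlap and higher (log2 fold change 0.51, SE 0.11, edgeR adjusted p = 0.196). Pknox1 had 101, 95.1, 101 and 95.8 CPM in Erbb3f/f replicates 1 to 4 and 84.7, 82, 79.1 and 88.6 CPM in Erbb3d/d replicates 1 to 4, again without overlap and lower (log2 fold change -0.23, SE 0.08, edgeR adjusted p = 0.319). Pknox2 and Pbxip1 were the 2 cofactors that DESeq2 called (DESeq2 adjusted p = 0.00269 and 0.00777), where it called 1.78% of all genes. Over all alternatives their adjusted p ranged from 0.00269 to 0.999 and from 0.00777 to 0.999. Meis1 had 63.4, 56.4, 55.2 and 63.7 CPM in Erbb3f/f replicates 1 to 4 and 104, 52.5, 94.2 and 124 CPM in Erbb3d/d replicates 1 to 4 (log2 fold change 0.65, SE 0.22, edgeR adjusted p = 0.323), and Meis2 had 86.2, 76.4, 81.8 and 66.6 CPM in Erbb3f/f replicates 1 to 4 and 149.97, 81.3, 90.2 and 111 CPM in Erbb3d/d replicates 1 to 4 (log2 fold change 0.47, SE 0.18, edgeR adjusted p = 0.356), with Erbb3d/d replicate 2 inside the Erbb3f/f range for Meis2 and below it for Meis1. Without Erbb3d/d replicate 2, edgeR called 3 cofactors, beside 1.75% of all genes. The 3 were Meis1 (log2 fold change 0.85, SE 0.12, edgeR adjusted p = 0.0134), Pknox2 (log2 fold change -1.04, SE 0.14, edgeR adjusted p = 0.0134) and Pbxip1 (log2 fold change 0.59, SE 0.11, edgeR adjusted p = 0.0345). Over all alternatives the adjusted p of Meis1 ranged from 0.0134 to 0.999. Without overlap, 1 of the 10 cofactors was higher and 2 were lower, beside 2.56% and 2.48% of all genes. The median log2 fold change of the 10 was -0.0046.

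**Figure D5:**
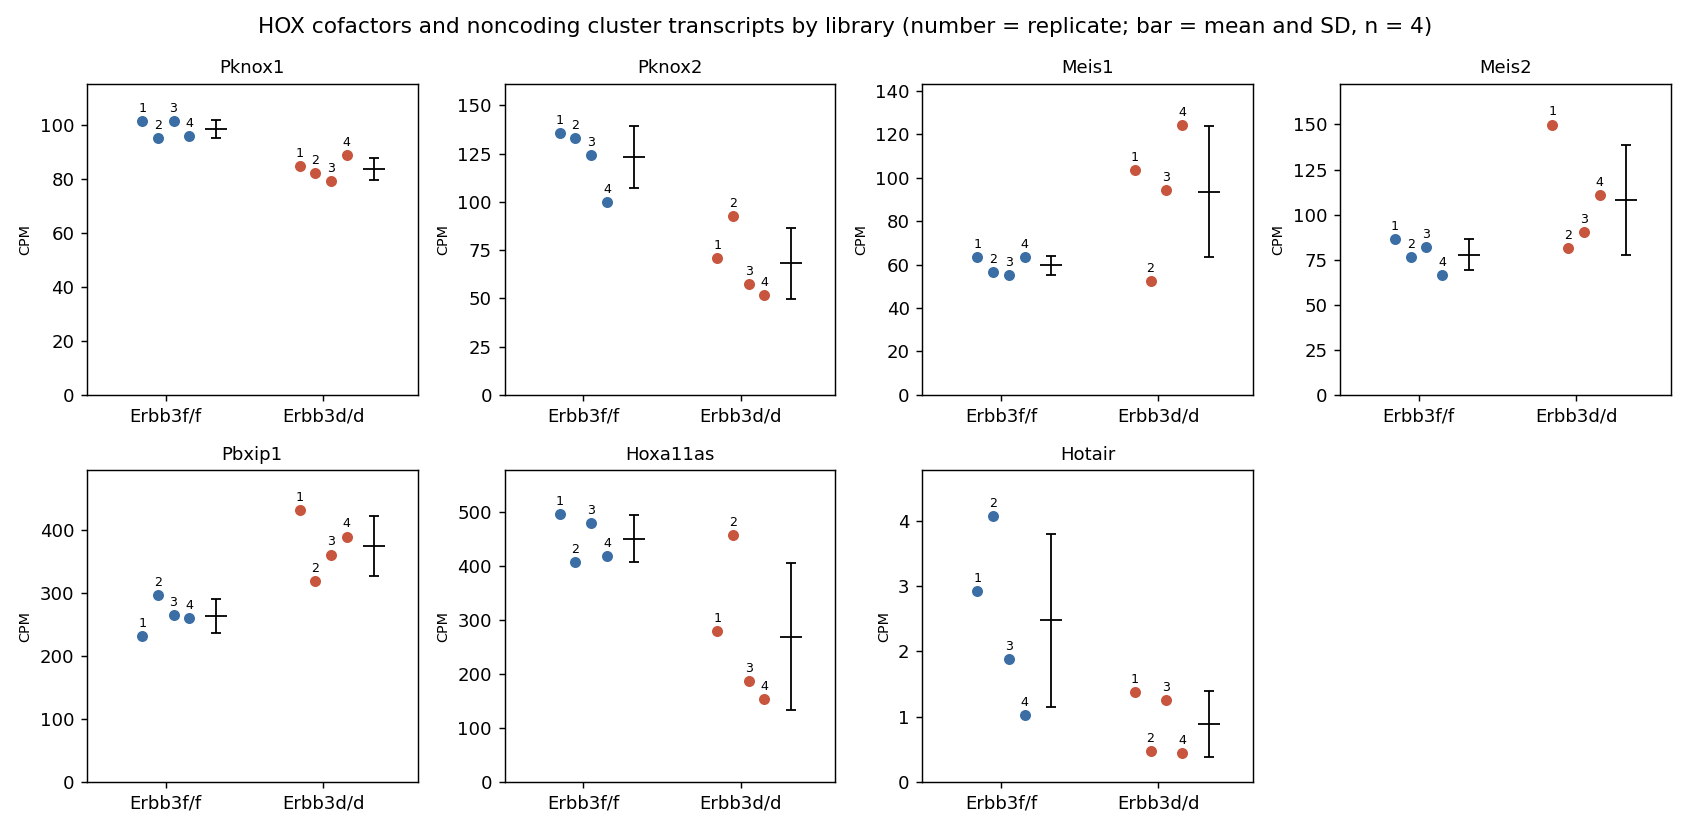
CPM (vertical axes, linear from 0) of 5 genes of the HOX cofactor list and 2 noncoding cluster transcripts in each library, with replicate numbers beside the points and the mean and SD of 4 libraries as a bar. Pknox1, Pknox2 and Pbxip1 show no overlap between the genotypes, while Hoxa11as splits the Erbb3d/d libraries as Hoxa11 does.

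Polycomb complexes keep HOX genes silent and MLL complexes keep them active. Of 22 Polycomb genes tested, 2 were higher at an unadjusted edgeR p under 0.05, the methyltransferase gene Ezh1 (log2 fold change 0.30, SE 0.11, edgeR adjusted p = 0.337) and Cbx7, which encodes a reader of the Polycomb mark (log2 fold change 0.43, SE 0.13, edgeR adjusted p = 0.305), and 0 were lower. The 2 higher genes were 9.09% of the list, beside 6.64% of all genes, and the median of the list was 0.02. Of 9 MLL and trithorax genes tested, 1 was lower, Men1, which encodes menin (log2 fold change -0.26, SE 0.09, edgeR adjusted p = 0.319), and 0 were higher, with a median of -0.09. This 1 gene was 11.1% of the tested list, beside 4.97% of all genes. The list held 11 genes, of which only these 9 matched a gene symbol of the data. None of the 9 encodes an MLL methyltransferase, so the MLL genes themselves are outside this comparison.

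Among 9 tested genes listed as upstream regulators, Wnt7a, an epithelial Wnt ligand needed for Hoxa10 and Hoxa11 in the mouse uterus, had 20.6, 20.3, 34.2 and 71 CPM in Erbb3f/f replicates 1 to 4 and 103, 60.8, 275 and 228 CPM in Erbb3d/d replicates 1 to 4. It was higher in Erbb3d/d, most in replicates 3 and 4, and only replicate 2 lay below an Erbb3f/f library (log2 fold change 2.20, SE 0.56, edgeR adjusted p = 0.279; DESeq2 adjusted p = 0.0421, 0.0355 to 0.999 over all alternatives). Nr2f2, which is also on the stromal marker list, was lower at an unadjusted p under 0.05 (log2 fold change -0.28, SE 0.12, edgeR adjusted p = 0.418). At that edgeR p, 11.1% of the list was higher and 11.1% lower, beside 6.64% and 4.97% of all genes. The progesterone receptor gene Pgr, abundant in these cells, had 608, 762, 623 and 722 CPM in Erbb3f/f replicates 1 to 4 and 418, 643, 639 and 477 CPM in Erbb3d/d replicates 1 to 4 (log2 fold change -0.32, SE 0.15, edgeR adjusted p = 0.452). Cdx1, Cdx2 and Cdx4, which activate HOX genes in the embryo, had group means of at most 0.105 CPM. Of 7 tested genes listed as downstream of Hoxa10 or Hoxa11, 2 were higher at an unadjusted p under 0.05, the progesterone receptor co-chaperone gene Fkbp4 (log2 fold change 0.40, SE 0.12, edgeR adjusted p = 0.305) and Foxo1 (log2 fold change 0.32, SE 0.12, edgeR adjusted p = 0.348), and 0 were lower. These 2 were 28.6% of the tested list, beside 6.64% of all genes. The 9 tested genes that flank the clusters had a median of 0.01, and 1, Lnp beside HoxD, was lower at an unadjusted p under 0.05 (log2 fold change -0.34, SE 0.11, edgeR adjusted p = 0.316). Lnp was 11.1% of these tested genes, beside 4.97% of all genes. Evx2, which lies beyond Hoxd13, had no read in any library.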

How the data were processed

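Polyadenylated RNA from 8 day 3 uterine stromal samples (4 Erbb3f/f, 4 Erbb3d/d) was read in pairs with non-directional libraries, per the labels' protocols. The authors deposited raw read counts per gene symbol with no normalization, 1 table per library. The submitters' processing notes name HISAT2, SAMtools, HTSeq, StringTie and the build mm10/GRCm38, with no versions or options. The 5 lines per table that name no gene were left out, and 27.0% to 29.1% of entries lay in genes. Entries outside every feature made up 48.3% to 50.8%, and those ambiguous between genes 0.147% to 0.166%. The members and lists were chosen with earlier results of these data known.

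Genes kept by filterByExpr (14598) were fitted with edgeR 4.0.16 in R 4.3.3 (TMM scaling, glmQLFit with robust estimation, glmQLFTest), adjusted by Benjamini-Hochberg over all genes with calls at 0.05. Fold changes set Erbb3d/d over Erbb3f/f. The exact permutation test took the 70 assignments of 8 libraries and log2(CPM + 0.5). Length-scaled levels used merged exons of GENCODE vM21, which matched 92.8% of symbols. DESeq2 1.42.0, limma 3.58.1 (voom), 2 other scalings, 2 other filters, a replicate block, 2 marker covariates and leaving out libraries were alternatives. The fits were tested on simulated data. No 2 libraries of the same genotype were alike within sampling noise. The text names HOX genes with the values in each library for genes that were on or had an unadjusted p under 0.05, and of each other list the members with an unadjusted p under 0.05 or otherwise the 2 most abundant. Pgr, named for its abundance, and the genes at or near 0 reads, were added to these after their values were seen, and so was Mir196b. The pattern for noncoding symbols also matched 10 symbols from Mir1960 to Mir1969, which were left out. Promoter sequences came from RefSeq. Some genes of the lists are not reported here.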

Additional observations from a re-analysis of the deposited data

Results flagged for a closer look

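In a few members 1 of the 4 Erbb3f/f libraries stood apart from the other 3, by more than Dixon's 95% critical value for the gap to the nearest library over the whole range for groups of 4. Erbb3f/f replicate 3 was high for Hoxa5, at 11.6 CPM with the next library at 8.82 CPM, and for Hoxd3, at 95.5 CPM with the next at 63.8 CPM. The same library was low for Hoxb3, at 32.4 CPM with the next at 40.7 CPM. Erbb3f/f replicate 2 was high for Hoxb9, at 9.84 CPM with the next at 6.14 CPM, and still lay below all Erbb3d/d libraries. These 4 were found among 58 groups tested, where chance gives about 1 in 20, or 2.9.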

How the results depend on the processing

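Members called by edgeR stayed at 0 under the other scalings, filters, covariates, voom and the replicate block, DESeq2 called 1 and leaving out 1 library at a time gave 0 to 3, the 3 without Erbb3d/d replicate 2. Members higher at an unadjusted p under 0.05 numbered 5, and 2 with the epithelial covariate, 1 with the smooth muscle covariate, 1 without Erbb3d/d replicates 3 and 4, and 1 to 6 without single libraries. Members lower numbered 3, and 1 with no filter, 0 with either covariate, 0 without Erbb3d/d replicates 3 and 4, and 0 to 8 without single libraries. Over all genes 969 were higher and 726 lower at that p. These became 306 and 171 with the epithelial covariate and 674 and 480 with the smooth muscle covariate. They were 448 and 246 without Erbb3d/d replicates 3 and 4, and 1144 and 794 with no filter. Without single libraries they ran from 624 to 1473 and from 401 to 1317. DESeq2 called 2 cofactors and 1 upstream regulator where edgeR called 0, beside 1.78% of all genes. Without Erbb3d/d replicate 2 edgeR called 3 cofactors and Hoxa11as, beside 1.75% of all genes. The 25 members called on became 29 by a mean of at least 1 CPM, 26 at 0.5 CPM and 19 at 5 CPM. The log2 ratio of summed CPM ranged without single libraries from -0.79 to -0.38 for HoxA, from 0.27 to 0.48 for HoxB, from 0.53 to 0.83 for HoxC and from -0.53 to -0.22 for HoxD, and without Erbb3d/d replicates 3 and 4 it was -0.17, 0.16, 0.59 and -0.07.

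Of 532 log2 fold changes of single members under alternatives, 26 changed sign, and 11 members kept theirs in all. With the epithelial covariate the values were 0.056 for Hoxa9, -0.27 for Hoxb2, -0.15 for Hoxb5, -0.051 for Hoxb6, -0.14 for Hoxb7, -0.072 for Hoxb8, 0.18 for Hoxd3, 0.16 for Hoxd4, 0.17 for Hoxd8, 0.16 for Hoxd9 and 0.064 for Hoxd10. With the smooth muscle covariate they were -0.073 for Hoxa2, -0.022 for Hoxa3, -0.43 for Hoxa5, -0.31 for Hoxc5, -0.00539 for Hoxb4 and 0.11 for Hoxd3. Without Erbb3d/d replicates 3 and 4 they were -0.094 for Hoxa6, -0.016 for Hoxb2, -0.049 for Hoxb7, -0.030 for Hoxc8, 0.040 for Hoxd8 and 0.056 for Hoxd9. Single libraries moved Hoxa4 over -0.83 to 0.085, Hoxa5 over -0.16 to 0.37 and Hoxc8 over -0.19 to 0.97, turning Hoxa4 to 0.085 (without Erbb3f/f replicate 1), Hoxa5 to -0.16 (without Erbb3d/d replicate 1) and Hoxc8 to -0.19 (without Erbb3d/d replicate 3). The cause was not tested.

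The labels do not say what a replicate number marks, so the numbers were not taken to pair the samples. Deviations of same-numbered libraries correlated at 0.221, 0.159, 0.0959 and 0.145, all above 0 and 3 of the 4 above 0.1. Those of differently numbered libraries ran from -0.296 to 0.302 and lay below 0 in 9 of 12. Erbb3d/d replicates 2 and 3 correlated best with another number, so whether the numbers mark a shared source is not settled by these values. With the replicate block edgeR called 52 genes and 0 members, where the fit without it called 0 genes, and 5 members were higher and 3 lower at an unadjusted p under 0.05. Depth limits the 14 low members, of which 9 were too low to test, and counting intervals would cover counting error only.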
